A study of Drosophila melanogaster with 18 samples.

Results

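The genes described here are 9 protein-coding genes of *Drosophila melanogaster* that build or drive the nucleolus, taken by name from the 17575 genes counted in a study of the *modulo* mutant testis. They are 3 subunits of RNA polymerase I (*Polr1A*, *Polr1B* and *Polr1H*, formerly *RpI1*, *RpI135* and *RpI12*), the initiation factor *Tif-IA*, the nucleolar and ribosome assembly genes *Nopp140*, *Ns1*, *Nnp-1* and *pit*, and the transcription factor *Myc*. Total RNA was purified from adult testes of males aged 1 to 3 days that were reared at 25 °C, freed of most ribosomal RNA with a depletion kit and sequenced in pairs of reads. The *modulo* mutant was mod07570 over modL8, and the control was mod07570 over a wild-type chromosome. Both genotypes therefore carried mod07570, and the control, which the titles call wt, had a single wild-type copy of *modulo*. Each genotype had 3 replicates, each sequenced on 3 lanes. The question put to these genes was whether their RNA differed between the 2 genotypes, since Modulo is the fly homolog of Nucleolin, an abundant nucleolar protein.

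RNA polymerase I transcribes the ribosomal DNA repeats into the long precursor of the large ribosomal RNAs, and the nucleolus forms around this transcript. There, assembly factors, GTPases and RNA helicases fold, cut and modify the precursor and load ribosomal proteins onto it. Tif-IA couples the polymerase to the promoter, and Myc is known in flies to raise the transcription of many genes of this pathway. In the testis, germline stem cells and spermatogonia grow and divide, spermatocytes then grow to a large size with a prominent nucleolus, and most transcription has ended by the time the spermatids elongate.

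The depth of the libraries lay between 90898270 and 107435749 counts in *modulo* mutant replicates and between 87119206 and 94915990 counts in control replicates. Values below are normalised counts, that is counts divided by the replicate's effective library size from edgeR's TMM method relative to the mean of the 6 replicates. *mod* itself, the check of the labels, had 196, 182 and 121 normalised counts in the mutant replicates, against 2063, 1963 and 2109 in control replicates, so the 2 genotypes were far apart. Of all 14059 genes tested, 4547 (32.3%) passed an adjusted p of 0.05 (edgeR's quasi-likelihood test, Benjamini-Hochberg method), a large background against which the 9 genes are read. Testis is a mixed tissue, and in bulk RNA fewer cells of a type and less RNA per cell cannot be told apart. Defining markers of the early germline, spermatocytes, spermatids, hub and cyst cells were counted in both genotypes, and none of the genes on these lists was at 0 in all 6 replicates.

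Of the 9 genes, 5 rose in *modulo* mutant testes and 0 fell at an adjusted p of 0.05 (edgeR). At an unadjusted p under 0.05 the same count of 5 was higher and 1, *Tif-IA*, was lower, and DESeq2 also called 5 higher and *Tif-IA* lower. Of all 14059 genes tested, 6143 had an unadjusted p under 0.05 and DESeq2 called 5211, in either direction. Counts of these 2 kinds given below for other lists have the same background. The counts for the 9 genes depend on how the libraries are scaled. The libraries were also scaled to 7 early germline markers (given below), whose sum was itself higher in the mutant. This scale was chosen after seeing the data. In that fit 7577 genes were called in either direction, and the median log2 fold change of all genes was -0.50. Of the 9 genes, 0 were called higher there and *Tif-IA* was called lower. The genes called higher with TMM scaling were *Polr1A*, *Polr1B*, *pit*, *Nnp-1* and *Ns1*, with fold changes between 1.21 and 1.59. Among all genes tested, 14.5% were called higher and 17.8% were called lower, and among protein-coding genes with a mean level inside the range of the 9 genes, 16.9% were called higher. The log2 fold change, mutant over control, was above 0 in 8 of the 9 genes with TMM scaling (in 3 of the 9 with those 7 markers), and its median was 0.34, beside 0.02 over all genes tested. The 3 mutant replicates did not overlap the 3 control replicates in 6 of the 9 genes, of which 5 were higher and *Tif-IA* was lower. Such separation was common, since 47.3% of all genes tested showed it in either direction and 23.2% showed it with the mutant higher.

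**Figure D1:**
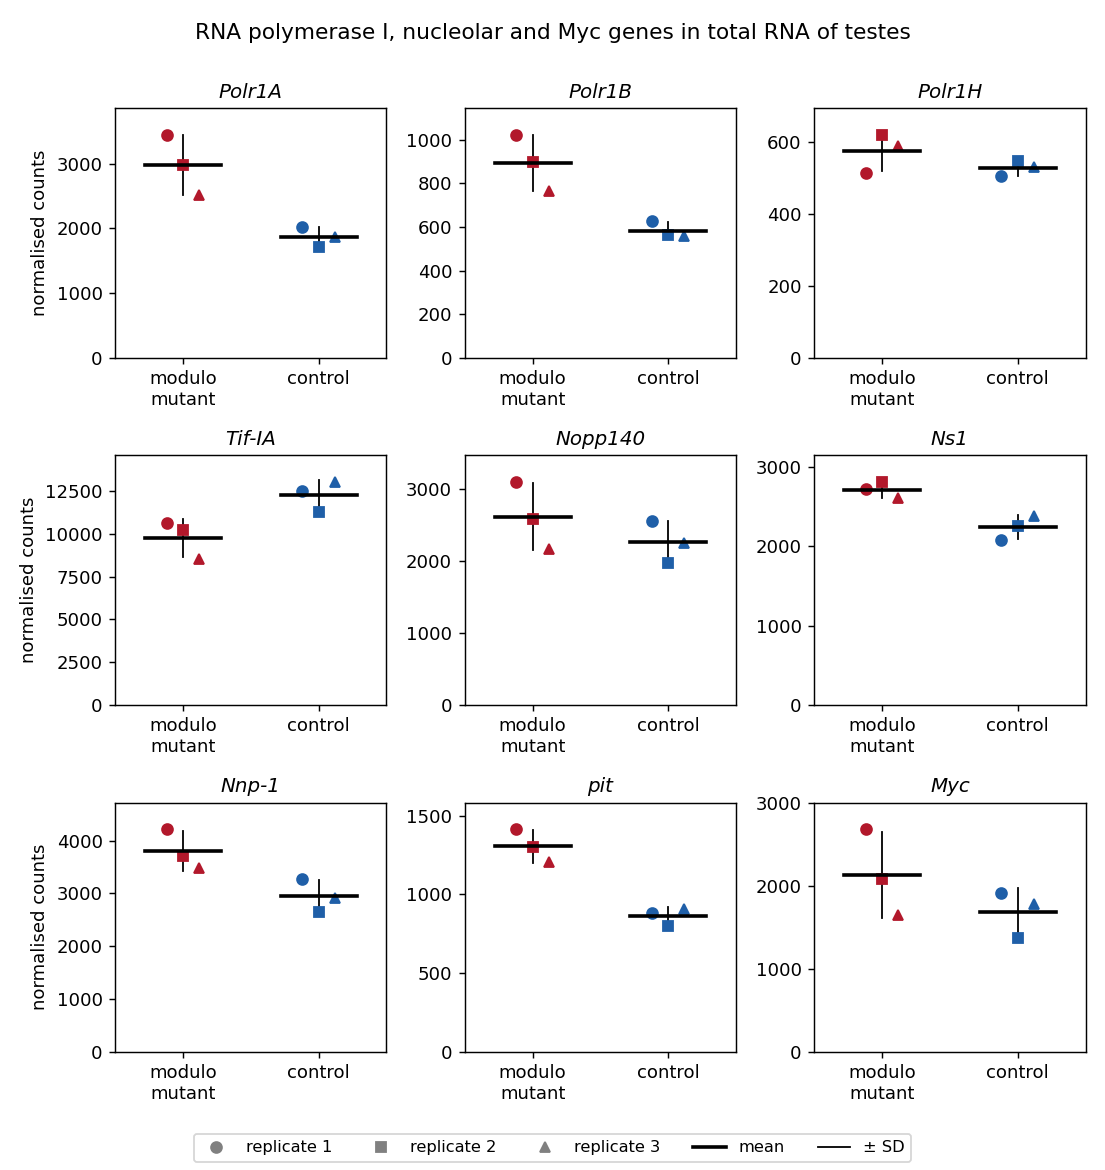
Normalised counts (vertical axes, from 0) of the 9 genes in total RNA of testes, with *modulo* mutant replicates in red and control replicates in blue. Symbols mark the replicate number, thick bars the mean and thin bars the SD (n = 3 each). *Polr1A*, *Polr1B*, *Ns1*, *Nnp-1* and *pit* had every mutant replicate above every control replicate, *Tif-IA* every mutant replicate below, and *Polr1H*, *Nopp140* and *Myc* overlapped.

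*Polr1A* (FBgn0019938, chromosome 2R from 14595611 to 14601216, minus strand of BDGP6/dm6) encodes the largest subunit of RNA polymerase I, which forms the catalytic centre together with the product of *Polr1B*. It had 3441, 2980 and 2510 normalised counts in *modulo* mutant replicates 1, 2 and 3, against 2024, 1716 and 1867 in control replicates. Even the lowest mutant replicate was above the highest control replicate, and the mutant replicates were more spread out than the control replicates. The fold change was 1.59, or 0.67 on the log2 scale, with a standard error (SE) of 0.13 (Benjamini-Hochberg adjusted p = 0.00875 by edgeR's quasi-likelihood test). *Polr1A* was the most changed of the 9 genes, and 92.9% of all genes tested had a lower log2 fold change.

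*Polr1B* (FBgn0003278, chromosome 2L from 404285 to 407969, plus strand) encodes the second largest subunit. Its normalised counts were 1022, 899.6 and 765.1 in mutant replicates and 628.9, 562.9 and 557.0 in control replicates. The genotypes again did not overlap, and the order of the mutant replicates was that of *Polr1A*. *Polr1B* RNA was 0.62 higher on the log2 scale (SE 0.13, Benjamini-Hochberg adjusted p = 0.00975 by edgeR's quasi-likelihood test). Normalised counts per kilobase of exon, which allow levels to be compared between genes, gave a ratio of *Polr1A* to *Polr1B* of 2.33 ± 0.03 in the mutant and 2.25 ± 0.11 in control (SD, n = 3 each). The ratios overlapped between the genotypes (exact two-sided permutation test, p = 0.3, where 3 replicates against 3 cannot go below 0.1, and 0.3 after Benjamini-Hochberg adjustment over the 7 ratios computed).

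*Polr1H* (FBgn0038903, chromosome 3R from 21777203 to 21777847, minus strand) encodes a small zinc ribbon subunit that, in yeast, is needed for the polymerase to cleave its own transcript. It had 514.7, 619.9 and 589.6 normalised counts in mutant replicates, against 505.6, 546.6 and 530.6 in control replicates. Mutant replicate 1 lay within the control range, and the other mutant replicates lay a little above it. The log2 fold change of 0.12 did not pass the test (95% interval from -0.11 to 0.36, Benjamini-Hochberg adjusted p = 0.386 by edgeR's quasi-likelihood test). The ratio of levels per kilobase of *Polr1A* to *Polr1H* was 0.548 ± 0.13 in the mutant and 0.371 ± 0.045 in control, without overlap (SD, n = 3 each). Its exact two-sided permutation p of 0.1 is the smallest that 3 replicates against 3 allow, and it became 0.117 after Benjamini-Hochberg adjustment over the 7 ratios.

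*Tif-IA* (FBgn0032988, chromosome 2L from 22249876 to 22258260, plus strand) encodes the homolog of yeast Rrn3, the factor that makes RNA polymerase I competent to start and that responds to growth signals. It was the most abundant of the 9 per kilobase of exon, with 4577 normalised counts per kilobase in the mutant and 5737 in control, and was the only 1 of the 9 with a log2 fold change below 0 under TMM scaling. Its normalised counts were 10623, 10231 and 8529 in mutant replicates and 12497, 11293 and 13041 in control replicates. All mutant replicates were below all control replicates, mutant replicate 3 by most. This was a log2 fold change of -0.33 (SE 0.11, 95% interval from -0.58 to -0.07), which just missed the threshold (Benjamini-Hochberg adjusted p = 0.0601 by edgeR's quasi-likelihood test). It passed with the replicate number as a block (adjusted p = 0.0314, edgeR) and with DESeq2 (adjusted p = 0.0246), and its adjusted p ran from 0.000649 to 0.186 over all alternatives.

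*Polr1A* and *Tif-IA* had the highest and the lowest log2 fold change of the 9 genes, of opposite sign under TMM scaling. The difference in their ratio therefore had to be larger than that of either gene, and is not a separate result. The ratio of *Polr1A* to *Tif-IA*, in normalised counts per kilobase, was 0.137, 0.123 and 0.124 in mutant replicates, against 0.0683, 0.0640 and 0.0603 in control replicates. The replicates of a genotype lay close together and the genotypes far apart, by 0.99 on the log2 scale. The exact two-sided permutation p was 0.1, the smallest possible, and 0.117 after Benjamini-Hochberg adjustment over the 7 ratios. A ratio within a replicate does not depend on how the libraries were scaled, and it shows that the 2 RNAs differed unequally without saying which of them moved.

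*pit* (FBgn0266581, chromosome 3R from 22034298 to 22038925, plus strand) encodes Pitchoune, a nucleolar DEAD-box RNA helicase needed for larval growth and known as a gene that Myc can induce in flies. It had 1414, 1300 and 1206 normalised counts in mutant replicates, against 883.7, 800.5 and 909.7 in control replicates. The genotypes were well separated and the spread within each was small. Its log2 fold change of 0.60 (SE 0.097, fold change 1.51) had the lowest adjusted p of the 9, at 0.00411 (edgeR's quasi-likelihood test, Benjamini-Hochberg method).

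*Nnp-1* (FBgn0022069, chromosome 2L from 13363308 to 13366189, minus strand) encodes the homolog of yeast Rrp1, a processing factor of the large ribosomal subunit. Its normalised counts were 4215, 3701 and 3485 in mutant replicates and 3267, 2654 and 2917 in control replicates. No replicates overlapped, although mutant replicate 3 and control replicate 1 came close. *Nnp-1* rose by 0.37 on the log2 scale (SE 0.11, Benjamini-Hochberg adjusted p = 0.0448 by edgeR's quasi-likelihood test). This call was lost when any 1 replicate other than control replicate 1 was left out, with adjusted p between 0.0584 and 0.142 (edgeR) and a log2 fold change between 0.29 and 0.42 in those 5 fits.

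*Ns1* (FBgn0038473, chromosome 3R from 17070523 to 17072675, minus strand) encodes a nucleolar GTPase of the nucleostemin family, which acts in the release of large ribosomal subunits from the nucleolus in flies. It had 2724, 2812 and 2613 normalised counts in mutant replicates, against 2087, 2255 and 2386 in control replicates. The genotypes did not overlap, and the difference was smaller than for *pit* or the polymerase subunits. *Ns1* rose by 0.28 on the log2 scale (SE 0.083, Benjamini-Hochberg adjusted p = 0.0424 by edgeR's quasi-likelihood test). As for *Nnp-1*, 5 of the 6 fits with 1 replicate left out lost the call, here all but the fit without mutant replicate 1, with adjusted p between 0.0605 and 0.156 (edgeR) and a log2 fold change between 0.22 and 0.32.

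*Nopp140* (FBgn0037137, chromosome 3L from 21832774 to 21836685, plus strand) encodes a phosphoprotein of the nucleolus and Cajal bodies that binds small nucleolar ribonucleoproteins. Its normalised counts were 3092, 2584 and 2166 in mutant replicates and 2550, 1968 and 2246 in control replicates. The genotypes overlapped, because mutant replicate 3 was below control replicates 1 and 3. Its log2 fold change of 0.21 did not pass (95% interval from -0.15 to 0.58, Benjamini-Hochberg adjusted p = 0.335 by edgeR's quasi-likelihood test). It was 0.078 without mutant replicate 1, 0.12 without control replicate 2 and 0.33 without mutant replicate 3, never called.

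*Myc* (FBgn0262656, chromosome X from 3373159 to 3391697, plus strand) encodes the basic helix-loop-helix transcription factor that drives cell growth together with its partner Max. It had 2682, 2077 and 1651 normalised counts in mutant replicates, against 1916, 1368 and 1781 in control replicates. It was the most variable of the 9, and mutant replicate 3 was below control replicates 1 and 3. The log2 fold change was 0.34 and did not pass the test (SE 0.20, 95% interval from -0.14 to 0.82, Benjamini-Hochberg adjusted p = 0.243 by edgeR's quasi-likelihood test). That interval reaches from a small decrease to an increase larger than that of *Polr1A* in the main comparison, and the log2 fold change was 0.15 without mutant replicate 1 and 0.49 without mutant replicate 3. The ratio of levels per kilobase of *Myc* to *Polr1A* was 0.394 ± 0.034 in the mutant and 0.498 ± 0.049 in control (SD, n = 3 each; exact two-sided permutation p = 0.1, and 0.117 after Benjamini-Hochberg adjustment over the 7 ratios). The annotation places an lncRNA, lncRNA:CR44999, on the strand of *Myc* over 1859 of its exonic bases (20.3%), and read pairs there may have been counted for neither gene. lncRNA:CR44999 had only 11.7, 16.3 and 21.7 normalised counts in mutant replicates and 5.02, 3.06 and 2.11 in control replicates. The protein-coding gene CG12535 shares 3754 exonic bases with *Myc* on the opposite strand. Counting used strand, and CG12535 had a log2 fold change of 0.06.

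The order of levels of the 9 genes was much the same in both genotypes when normalised counts were divided by exonic length. In the mutant, *Tif-IA* stood far above the rest, followed by *Ns1* at 1433, *Nnp-1* at 1319 and *Polr1H* at 1084 normalised counts per kilobase. *Nopp140* at 809, *Polr1A* at 586, *pit* at 442, *Polr1B* at 251 and *Myc* at 233 came after them. In control the levels were 1183 for *Ns1*, 1022 for *Nnp-1*, 995 for *Polr1H*, 698 for *Nopp140*, 368 for *Polr1A*, 292 for *pit*, 184 for *Myc* and 164 for *Polr1B*. The neighbours *Polr1B* and *Myc* thus changed places, and their levels differed by less than the spread of *Myc*. The length of *Myc* includes 1859 exonic bases shared with lncRNA:CR44999, where read pairs may have gone uncounted. Its level per kilobase may therefore be too low, and its rank beside *Polr1B* was not resolved.

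The replicates of 1 genotype were not alike for these genes. Mutant replicate 3 was the lowest mutant replicate in 8 of the 9 genes, and in 7 of them replicate 1 was the highest and replicate 2 lay between. In control, replicate 2 was the lowest in 6 genes. The replicate numbers paired the libraries across genotypes, as judged from all genes, so the genes were also compared within pairs. The log2 ratio of mutant to control was above 0 in all 3 pairs for 6 of the 9 genes, namely *Polr1A* (0.77, 0.80 and 0.43), *Polr1B* (0.70, 0.68 and 0.46), *pit* (0.68, 0.70 and 0.41), *Nnp-1* (0.37, 0.48 and 0.26), *Ns1* (0.38, 0.32 and 0.13) and *Polr1H* (0.03, 0.18 and 0.15). For *Myc* (0.49, 0.60 and -0.11) and *Nopp140* (0.28, 0.39 and -0.05) the third pair went the other way, and for *Tif-IA* (-0.23, -0.14 and -0.61) all pairs were below 0. The share of all genes above 0 in all 3 pairs was not counted. It includes every gene whose mutant replicates all lay above the control replicates, which were 23.2% of genes tested. With the replicate number as a block, the same 5 genes were called higher and *Tif-IA* was called lower (edgeR), while *Myc* had an adjusted p of 0.0833 and *Nopp140* of 0.123. Over all genes, the fit with the block called 6409, with 3122 higher and 3287 lower, against 4547 without it. Counts with the block given below for other lists have this background.

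**Figure D2:**
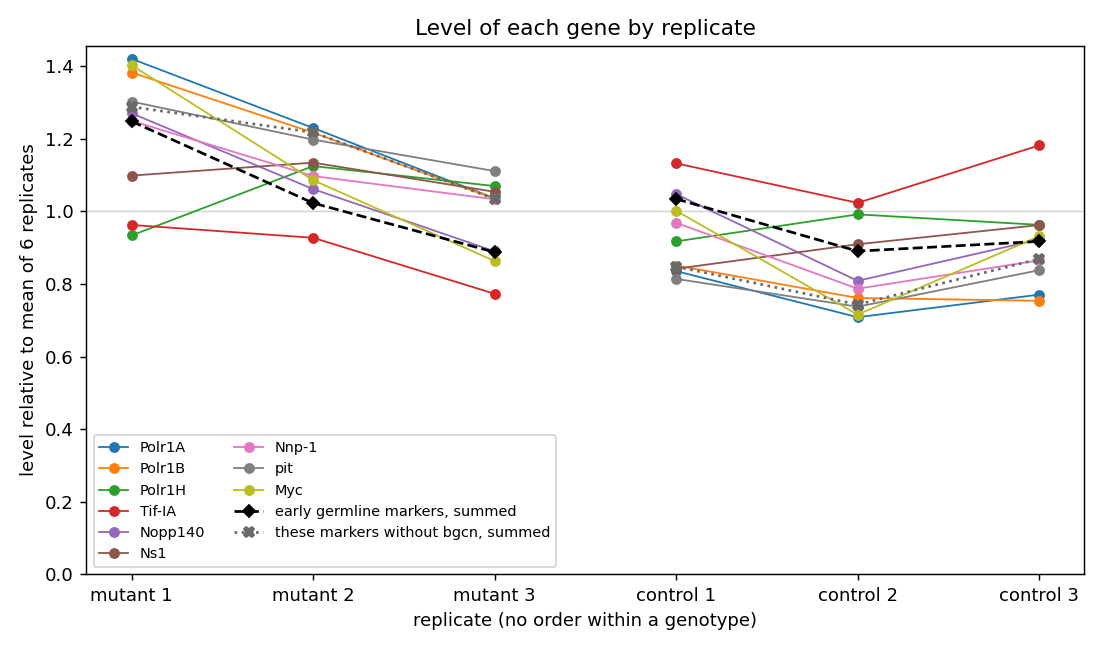
Level of each of the 9 genes in each replicate, as normalised counts divided by the gene's mean over the 6 replicates, with *modulo* mutant replicates on the left, control replicates on the right and lines joining replicates of 1 genotype. The dashed line is the summed level of 8 early germline markers, of which *bgcn* makes up most, and the dotted line the sum of the other 7, both scaled in the same way. *Polr1A* stood at 1.42, 1.23 and 1.04 in the mutant and 0.84, 0.71 and 0.77 in control, and among mutant replicates most genes and both marker sums were lowest in replicate 3, while the dotted line was higher in every mutant replicate than in any control replicate.

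Some genes taken as markers of the early germline moved with these genes, and others did not. The 8 markers of germline stem cells and spermatogonia summed to 20742, 17001 and 14750 normalised counts in mutant replicates, against 17188, 14797 and 15245 in control replicates, and none of the 8 was at 0. These sums overlapped, but 1 gene, *bgcn*, which encodes a partner of Bam, made up 56.2%, 49.5% and 50.5% of the sum in the mutant and 65.2%, 64.6% and 59.8% in control, with a log2 fold change of its own of -0.12. The other 7 markers summed to 9085, 8589 and 7297 normalised counts in mutant replicates, against 5979, 5242 and 6130 in control replicates. Without *bgcn* the genotypes thus did not overlap, and the mutant sum was 0.53 higher on the log2 scale. *bgcn* was set apart after seeing the data and had the lowest log2 fold change of the 8, so leaving it out raised the difference. The largest of the 7 was *aub*, with 4306, 3930 and 3387 normalised counts in mutant replicates and 2569, 2070 and 2456 in control replicates. Of the 8, 2 were called higher (edgeR), *nanos* at a log2 fold change of 0.84 and *aub* at 0.71, and 0 were called lower. With the replicate block 5 were called higher, *bam*, *vas* and *zpg* being added, and DESeq2 called 4, adding *vas* and *zpg*. At an unadjusted p under 0.05, 5 were higher. The remaining markers, *piwi* (log2 fold change -0.005), *stg* (-0.011) and *bgcn*, were near or below 0.

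Set against the 8 markers, *Polr1A* was equal to 16.6%, 17.5% and 17.0% of the sum in mutant replicates and to 11.8%, 11.6% and 12.2% in control replicates. Set against the 7 markers other than *bgcn*, it was equal to 37.9%, 34.7% and 34.4% in the mutant and to 33.9%, 32.7% and 30.5% in control, so most of the distance between the genotypes was gone although they did not overlap. *pit* was equal to 15.6%, 15.1% and 16.5% of the 7-marker sum in the mutant and to 14.8%, 15.3% and 14.8% in control, and these overlapped. *Tif-IA* was equal to between 117% and 119% of that sum in the mutant and to between 209% and 215% in control, without overlap.

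The libraries were also scaled to each of these sums, as alternatives chosen after seeing the data. With the 8 markers, a scale to which *bgcn* contributes most, the median log2 fold change of all genes was -0.11 in place of 0.02. That fit called 2849 genes in either direction. *Polr1A* (0.52, adjusted p = 0.0119), *Polr1B* (0.47, adjusted p = 0.0272) and *pit* (0.45, adjusted p = 0.0494) were still called higher and *Tif-IA* was called lower (-0.47, adjusted p = 0.0355, edgeR), while *Nnp-1* (0.23, adjusted p = 0.203) and *Ns1* (0.14, adjusted p = 0.625) were not called (edgeR). With the 7 markers, of which *aub* had the most counts, 7577 genes were called in either direction and the median of all genes was -0.50. Of the 9 genes, 0 were called higher. *Polr1A* was then at 0.14 (adjusted p = 0.344), *Polr1B* at 0.087 (adjusted p = 0.59) and *pit* at 0.073 (adjusted p = 0.619), while *Tif-IA* was called lower at -0.85 (adjusted p = 0.000649, edgeR). *Nnp-1* (-0.16), *Myc* (-0.19), *Ns1* (-0.25), *Nopp140* (-0.32) and *Polr1H* (-0.39) turned below 0 without passing, though above the median of all genes. Beyond the 9 genes, 26 genes and rows called higher, which are given below, were followed through the alternatives. Of these, 7 were still called higher with the 8 markers and 3, all of 2S sequence, with the 7 markers. *Polr2E*, *Ns2*, *CG8545*, *nanos*, *aub* and lncRNA:CR44999 were also called higher in the main fit and are not among the 26.

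Other cell types and library make-up were measured in the same way. The spermatocyte marker sum was 187698, 142175 and 123998 in the mutant and 172571, 149114 and 152096 in control, with mutant replicate 1 highest and mutant replicate 3 lowest. Most of it came from 1 gene, *bol*, with 140631, 95092 and 81653 normalised counts in the mutant and 130037, 108238 and 110598 in control. Of the 10 spermatocyte markers, 2 were called higher and 1 lower (edgeR), so the sum does not speak for each marker. The 7 hub and cyst markers summed to between 13236 and 13771 in the mutant and between 16101 and 16586 in control, without overlap, with 1 called higher and 2 lower. The share of counts on 7SL RNA ran the other way, at 1.35%, 2.23% and 2.94% in the mutant and 1.14%, 1.78% and 1.58% in control. Mitochondrial genes held 1.37%, 1.72% and 2.72% of counts in the mutant and 0.906%, 1.31% and 1.15% in control. Accessory gland markers summed to 21784, 9362 and 18212 in the mutant and 34286, 4168 and 25047 in control, lowest in replicate 2 of each genotype. Sums of spermatid, muscle, fat body and haemocyte markers overlapped between the genotypes. The part of cell composition or library make-up in the levels of the 9 genes was not tested.

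The other subunits of RNA polymerase I were measured beside the 3 chosen ones. Of the 7 tested subunits that are not shared with RNA polymerase II, 5 rose and 0 fell (edgeR, adjusted p under 0.05). These 7 include *Polr1A*, *Polr1B* and *Polr1H*, and *Polr1A* and *Polr1B* are among the 5. The median log2 fold change of the 7 was 0.62, which is the value of *Polr1B*. *Polr1E*, whose yeast counterpart forms a dimer specific to this polymerase, had between 2945 and 3405 normalised counts in the mutant and between 1785 and 2018 in control. Its log2 fold change of 0.78 was the largest of the 7 (Benjamini-Hochberg adjusted p = 0.00114 by edgeR's quasi-likelihood test). *Polr1D*, which polymerase III also uses, rose by 0.63 on the log2 scale (adjusted p = 0.00516), and *Polr1F*, a stalk subunit, rose by 0.31 (adjusted p = 0.0222, edgeR), a call that was lost in 5 of the 6 fits that left out 1 replicate. Scaled to the 8 germline markers, *Polr1E* (0.65, adjusted p = 0.0586), *Polr1D* (0.50, adjusted p = 0.107) and *Polr1F* (0.19, adjusted p = 0.507) were not called, and *Polr1F* turned to -0.21 with the 7 markers (edgeR). *Polr1D* was also not called from lane 2 alone (adjusted p = 0.0579). *Polr1C*, the partner of *Polr1D*, had 3829 ± 349 normalised counts in the mutant and 3662 ± 324 in control (SD, n = 3 each). Its log2 fold change was 0.06 (95% interval from -0.19 to 0.31, Benjamini-Hochberg adjusted p = 0.678 by edgeR's quasi-likelihood test). The subunits therefore did not differ to the same degree. *Polr1C* and *Polr1H* were near 0 under TMM scaling and with the 8 markers (-0.058 and -0.000256, median of all genes -0.11). With the 7 markers they were at -0.45 and -0.39, not called, where the median of all genes was -0.50 (edgeR).

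**Figure D3:**
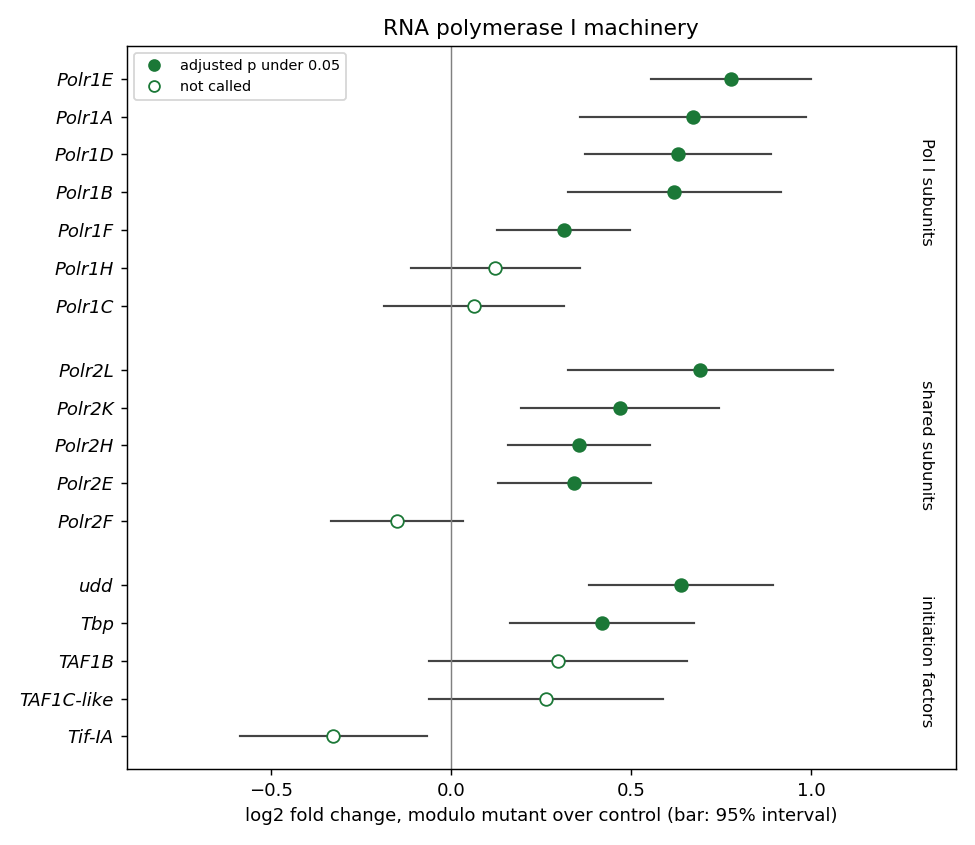
Log2 fold change, *modulo* mutant over control, of the genes of the RNA polymerase I machinery (horizontal axis), with bars for the 95% interval. Filled points passed an adjusted p of 0.05 in edgeR's quasi-likelihood test. Of the 7 polymerase I subunits 5 were called, of the 5 shared subunits 4, and of the 5 initiation factors *udd* and *Tbp*, while *Tif-IA* lay below 0 without passing.

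Among the 5 small subunits that all 3 nuclear polymerases share, 4 rose and 0 fell. *Polr2L* was at 0.69, *Polr2K* at 0.47, *Polr2H* at 0.36 and *Polr2E* at 0.34 on the log2 scale, whereas *Polr2F* was at -0.15 and did not pass (adjusted p = 0.184, edgeR). Without mutant replicate 2, 0 of these 5 were called, and 1 was called without mutant replicate 3 or any single control replicate. Among the initiation factors, *udd*, a fly protein required for ribosomal DNA transcription in germline stem cells, had between 534.5 and 653.6 normalised counts in the mutant and between 376.2 and 406.4 in control. It rose by 0.64 on the log2 scale (Benjamini-Hochberg adjusted p = 0.0047 by edgeR's quasi-likelihood test). Scaled to the 8 germline markers it was at 0.52 and not called (adjusted p = 0.148, edgeR). A copy of the 297 transposable element covers 33.3% of the exonic bases of *udd* on the same strand. *Tbp*, the TATA-binding protein used by all 3 polymerases, rose by 0.42 (adjusted p = 0.0249, edgeR), and this call was lost in 5 of the 6 fits with 1 replicate left out. *TAF1B* (0.30, adjusted p = 0.179) and *TAF1C-like* (0.26, adjusted p = 0.187), which encode counterparts of subunits of the human selectivity factor, did not pass (edgeR). With the replicate block 4 of the 5 initiation factors were called higher, and *Tif-IA* was called lower.

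The subunits of the other polymerases serve as a comparison. In the lists of polymerase subunits and of ribosome assembly genes, 0 genes were lower at an unadjusted p under 0.05 and DESeq2 called 0 lower. Of 6 tested subunits of RNA polymerase II, 3 rose and 0 fell, with a median log2 fold change of 0.44, and *Polr2C* (0.60), *Polr2B* (0.55) and *Polr2G* (0.54) were the ones called. *Polr2C* lost its call without mutant replicate 2 (adjusted p = 0.0581), control replicate 1 (adjusted p = 0.0554) or control replicate 3 (adjusted p = 0.0604), and scaled to the 8 germline markers none of these 3 was called (adjusted p from 0.0563 to 0.218, edgeR). Of 9 tested subunits of RNA polymerase III, 3 rose and 0 fell, with a median of 0.11. *Polr3G* rose by 0.84, *Polr3F* by 0.45 and *Polr3B* by 0.43 on the log2 scale, and *Polr3G* alone was called without mutant replicate 2 or control replicate 3 and with the 8-marker scaling. A higher level of subunit RNA was thus also measured for polymerase II, and no difference between the polymerases was tested. *Polr2D* and *Polr3K* had 0 counts in every replicate, and all of their exonic bases are shared on the same strand with another gene.

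Ribosome assembly genes gave 20 of 40 called higher and 0 lower, with a median log2 fold change of 0.32, and this list includes *Nopp140*, *Nnp-1* and *Ns1*. The genes with the largest change were *l(2)k09022*, the homolog of human HEATR1 of the small subunit processome, at 0.84, *l(1)G0020*, the homolog of the RNA acetyltransferase NAT10, at 0.75, and *vito*, the homolog of human NOL12, at 0.71. Scaled to the 8 germline markers, *vito* was not called (adjusted p = 0.0591), nor were the helicases *ais* (adjusted p = 0.0587) and *kz* (adjusted p = 0.128, edgeR). The count of 20 depended on the fit, since 28 were called with the replicate block and 26 with DESeq2, whereas only 6 were called without mutant replicate 2, 7 without control replicate 3, 9 without control replicate 2, 10 without control replicate 1 and 13 without mutant replicate 3. Of 12 nucleolar helicases, which include *pit*, 4 rose and 0 fell, with a median of 0.31, and *ais* at 0.71 and *kz* at 0.55 stood beside *pit*. At an unadjusted p under 0.05, 10 helicases were higher and 1 lower, and DESeq2 called 6 higher and 0 lower. With the replicate block 9 helicases were called higher and 1 lower.

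**Figure D4:**
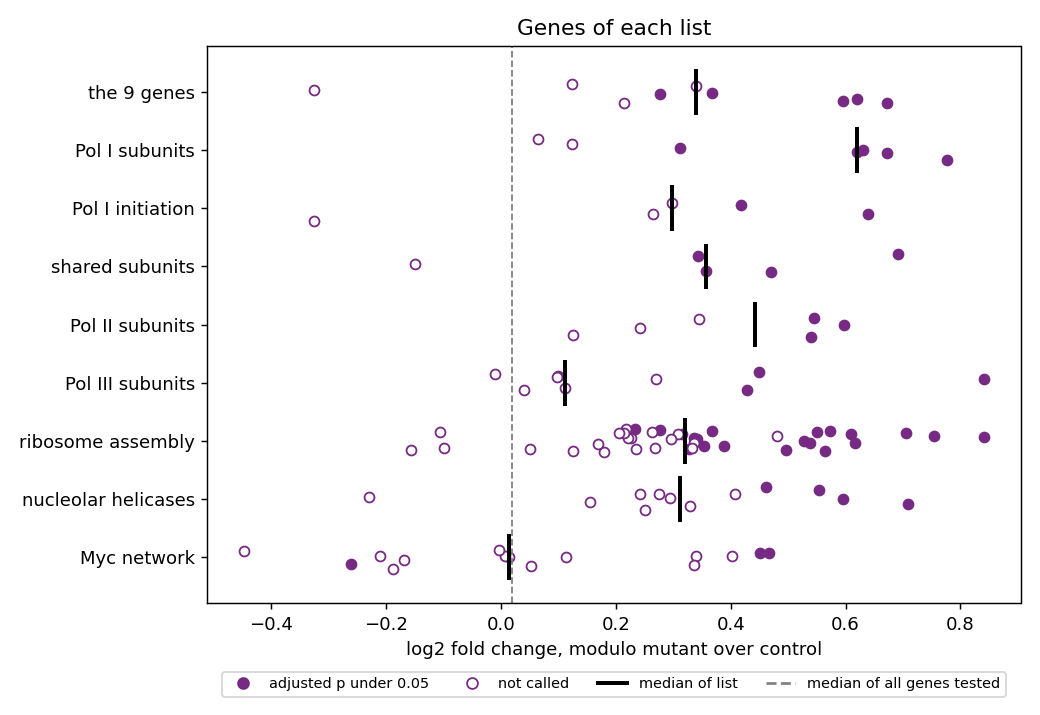
Log2 fold change, *modulo* mutant over control, of each tested gene in the 9 genes and in the lists around them, with filled points for an adjusted p under 0.05 (edgeR), a black bar for the median of the list and a dashed line for the median of all genes tested. A gene can stand in more than 1 list, and vertical scatter within a list has no meaning. The medians were 0.62 for polymerase I subunits, 0.32 for ribosome assembly genes and 0.01 for the Myc network.

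The partners and regulators of Myc showed no common direction. Of 15 genes of the Myc network, which include *Myc*, 2 rose and 1 fell, with a median log2 fold change of 0.01. Among all genes tested 14.5% were called higher and 17.8% lower, so calls in this fit were no more common in the network than among all genes. *Max*, the obligate partner of Myc, had 2608, 2422 and 2338 normalised counts in mutant replicates, against 1748, 1854 and 1787 in control replicates. The groups were clearly apart, and the log2 fold change was 0.45 (Benjamini-Hochberg adjusted p = 0.00562 by edgeR's quasi-likelihood test). It was 0.31 and not called with the 8-marker scaling (adjusted p = 0.177, edgeR), and -0.076 with the 7 markers. *bigmax*, the partner of the sugar sensor Mondo, rose by 0.47 (adjusted p = 0.0314, edgeR). *pont*, an ATPase that binds Myc, fell by 0.26 on the log2 scale (adjusted p = 0.0433, edgeR), and its call was lost in 5 of the 6 fits that left out 1 replicate, as was that of *bigmax*. Without mutant replicate 1, 5 genes of this network were called lower.

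Across the 6 replicates, the listed genes whose log2 normalised counts were most like the mean profile of the 9 genes were *Surf6* (Pearson r = 0.984), *Ns2* (0.979) and *CG8545* (0.977), out of 90 candidates. These 6 points share their libraries and the difference between genotypes, so the values are a description. Within the 9, *Polr1A* followed the mean of the other 8 most closely (r = 0.974) and *Tif-IA* ran against it (r = -0.52).

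Ribosomal RNA, the product of RNA polymerase I, was depleted before sequencing and its copies share sequence, so its rows are given as values. Rows with Psi in their symbols are named as pseudogene copies, and these include every 18S and 28S row with counts. The row of the precursor, pre-rRNA:CR45856 (chromosome X from 23278007 to 23283731, minus strand), had 36270, 40258 and 43400 normalised counts in mutant replicates, against 26771, 22039 and 27986 in control replicates. The groups did not overlap, and unlike *Polr1A* the mutant replicates were highest in replicate 3. The precursor row thus had a log2 fold change of 0.64 (SE 0.12, Benjamini-Hochberg adjusted p = 0.00693 by edgeR's quasi-likelihood test). It was 0.53 with the 8-marker scaling (adjusted p = 0.118) and 0.14 with the 7 markers (adjusted p = 0.496), not called in either (edgeR). The row 2SrRNA-Psi:CR40677 had 20449, 23735 and 30502 normalised counts in mutant replicates and 2600, 2161 and 2331 in control replicates. It spans 30 bases, as do the other 2S rows, which is less than the length of a read. Counts on a 2S row may therefore come from longer RNA that covers it. This was a log2 fold change of 3.40 (adjusted p = 4.13e-05, edgeR), and the 2 other 2S rows were higher as well, at 3.57 for 2SrRNA-Psi:CR45858 and 2.51 for 2SrRNA:CR45864. The row 5.8SrRNA-Psi:CR45863 was at 1.18 (adjusted p = 0.0176, edgeR), a call lost without mutant replicate 3 (adjusted p = 0.0537) or control replicate 3 (adjusted p = 0.0644, edgeR). Another 5.8S row, 5.8SrRNA-Psi:CR45854, had 10.8, 15.4 and 75.9 normalised counts in mutant replicates, against 123, 106 and 41.1 in control replicates. It overlapped and lay the other way, at a log2 fold change of -1.43 that did not pass (adjusted p = 0.191, edgeR).

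The 18S and 28S rows varied widely between replicates of 1 genotype. The 7 rows of 18S and 28S sequence, all named as pseudogene copies, summed to 10305, 24518 and 95188 normalised counts in mutant replicates. In control replicates the sums were 231248, 223408 and 81028. Mutant replicate 3 lay above control replicate 3, so the groups overlapped, and the highest mutant replicate was 9.24-fold above the lowest. Depletion of ribosomal RNA was not measured in these files, and its part in any of these rows was not tested.

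**Figure D5:**
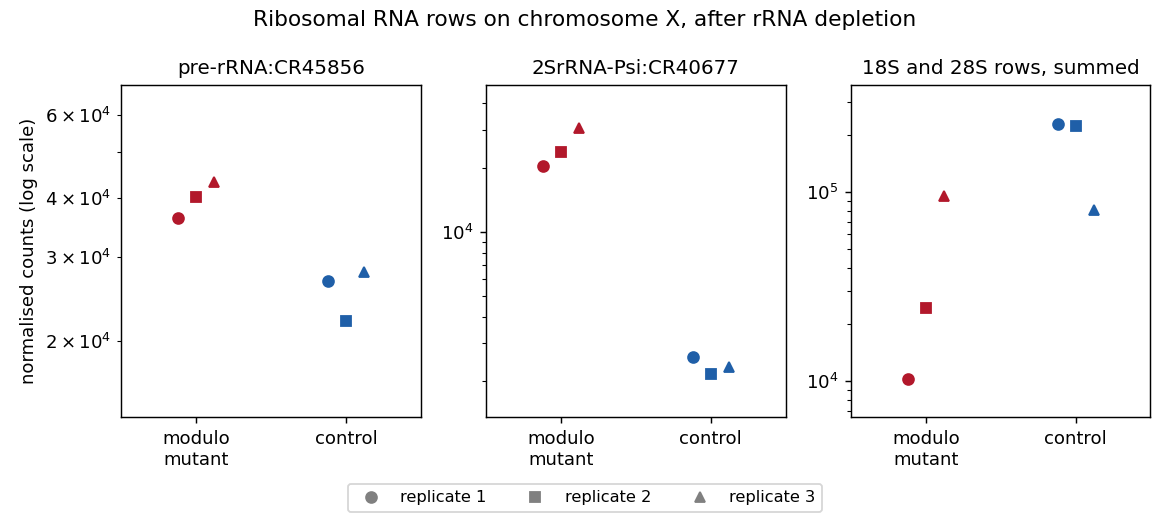
Normalised counts on log axes, each panel with its own scale, for pre-rRNA:CR45856, 2SrRNA-Psi:CR40677 and the sum of 7 rows of 18S and 28S sequence, all named as pseudogene copies. *modulo* mutant replicates are in red and control replicates in blue. The precursor and 2S rows had every mutant replicate above every control replicate, while the 18S and 28S sums overlapped, with mutant replicate 3 at 95188 and control replicate 3 at 81028.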

How the data were processed

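Flies were reared at 25 °C, and total RNA was purified from testes with Direct-zol and made into libraries with a KAPA HyperPrep kit after RiboErase depletion of ribosomal RNA. Per the labels and methods, the authors aligned read pairs with STAR 2.7.1a to BDGP6/dm6 and counted them by strand on FlyBase genes with featureCounts, with a pair of several positions split between them. The authors deposited these unnormalised estimated counts for each gene and lane, and a combined table repeating the same values was left out.

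The 3 lanes of a replicate, which differed by about sampling noise (mean index of dispersion from 1.008 to 1.032), were summed and rounded. Genes reaching 10 counts in 3 or more of 6 replicates were tested with edgeR 4.0.16 (TMM, quasi-likelihood, Benjamini-Hochberg over all genes) in R 4.3.3, without a block. The standard error is the log2 fold change divided by the square root of F. DESeq2 1.42.0 with ashr 2.2.63, other scalings and filters, single lanes, counts not rounded, fewer genes in the fit, the replicate block and each replicate left out were alternatives. The tests were checked on simulated counts. No set test was run. Figures were drawn with matplotlib 3.10.9.

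Deviations from the genotype mean correlated at 0.64, 0.65 and 0.25 between same-numbered replicates across 11353 genes, and between -0.68 and 0.10 otherwise, so same-numbered replicates were taken as paired, and the block was an alternative to the fit without it. The design text calls the replicates biological, and what same-numbered ones share is not given in the sources used here.

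The genes and lists were chosen with earlier results of these data known. Genes named are the 9 genes, every other measured polymerase I subunit (shared ones included) and initiation factor, the genes called with the largest changes in each other list (at most 3 in each direction), *mod*, called ribosomal RNA rows and the 3 genes most like the 9. Genes overlapping *Myc*, 2 listed genes with 0 counts, 5 called germline markers, *bgcn*, *piwi*, *stg*, *bol* and an uncalled 5.8S row are named outside this rule. Positions and exonic lengths came from Ensembl's BDGP6.54 annotation. The genes *Polr1G* and *Polr3J* matched no symbol and were not analysed here, and no sequences were used.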

Additional observations from a re-analysis of the deposited data

How the results depend on the processing

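There were 22 alternatives, of which 2 were chosen after seeing the data (scaling to 8 early germline markers, here germline scaling, and to the 7 other than *bgcn*). *Polr1A*, *Polr1B* and *pit* kept their direction in all and their call in all but the 7-marker scaling, and *Nopp140* and *Myc* stayed uncalled in all and kept their direction in all but that one. Outside it, *Polr1A* ranged from 0.52 to 0.78, *Polr1B* from 0.47 to 0.72, *pit* from 0.45 to 0.65 and *Myc* from 0.15 to 0.49 on the log2 scale. *Ns1* lost its call with total counts (0.22), upper quartile factors (0.25), lane 1 (0.27), lane 2 (0.24) or lane 3 (0.30) alone and germline scaling (0.14), and ran from 0.22 to 0.32 with 1 replicate left out. *Nnp-1* lost its call with total counts (0.31), protein-coding genes alone (0.35), lane 3 alone (0.27) and germline scaling (0.23), and ran from 0.29 to 0.44 with 1 replicate left out. *Tif-IA* passed with upper quartile factors (-0.35), DESeq2 (-0.33), DESeq2 with ashr (-0.27), lane 1 alone (-0.36) and germline scaling (-0.47), and ran from -0.39 to -0.24 with 1 replicate left out, passing only without mutant replicate 1. Under germline scaling *Polr1H* turned to -0.000256 and *Polr1C* to -0.058, both above the median of all genes under that scaling (-0.11), and *Polr1C* was at -0.012 without control replicate 1. With the 7-marker scaling (median of all genes -0.50), *Polr1A* (0.14), *Polr1B* (0.087) and *pit* (0.073) lost their calls, *Tif-IA* passed (-0.85), and *Polr1H* (-0.39), *Nopp140* (-0.32), *Ns1* (-0.25), *Nnp-1* (-0.16) and *Myc* (-0.19) turned below 0. So did *Polr1C* (-0.45), *Polr1F* (-0.21), *TAF1B* (-0.23), *TAF1C-like* (-0.27), *Tbp* (-0.099), *Polr2K* (-0.037), *Polr2H* (-0.16), *Polr3F* (-0.075), *Polr3B* (-0.099), *bigmax* (-0.048) and *Max* (-0.076). The cause of these changes was not tested.

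With the replicate block, *Tif-IA* was called (-0.33), as were *TAF1B* (0.30) and *TAF1C-like* (0.25). Among the germline markers it also called *bam*, *vas* and *zpg*, and it changed no other call among the genes followed through the alternatives. It called 6409 genes in all, against 4547, with 3122 higher and 3287 lower. Germline scaling called 2849 and the 7-marker scaling 7577. Of the 9 genes, 3 were called higher with total counts, lane 3 alone and germline scaling, 0 with the 7-marker scaling, and 3 to 4 with 1 replicate left out. Over those fits the number of genes called ran from 2611 (without mutant replicate 2) to 5895, and was 2754 without control replicate 3, and the number called higher ran from 919 to 2791. A single lane holds fewer counts, and each fit with a replicate left out has fewer samples. With 3 replicates per genotype, log2 changes such as that of *Myc* were not resolved from the spread.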
